A study of Triticum turgidum subsp. durum with 20 samples.

Results

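VRN1, FUL2 and FUL3 are the meristem identity genes of the AP1/SQUA subclade of MADS-box transcription factors. Durum wheat carries an A-genome and a B-genome copy (homoeolog) of each, so 6 gene models were followed here, out of 190381 models outside the D genome. They were selected by identifier, and earlier results of these data were known when they were chosen. The models are VRN-A1 (TraesCS5A02G391700), VRN-B1 (TraesCS5B02G396600), FUL-A2 (TraesCS2A02G174300), FUL-B2 (TraesCS2B02G200800), FUL-A3 (TraesCS2A02G261200) and FUL-B3 (TraesCS2B02G281000). FUL3 is also named AP1-3. All 6 passed the filter on low counts and were among the 48336 models tested.

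Apical meristems of the durum variety Kronos were sampled on the Waddington scale at W1 (vegetative meristem), W2, W3.0, W3.25 (lemma primordium) and W3.5 (terminal spikelet), with 4 biological replicates at each of the 5 stages. Each of the 20 RNA-seq libraries was made from pooled apices, about 20 for W1 and W2 and about 12 for W3.0 and beyond. The sources describe W2 and W3.0 in more than one way (double ridge or early double ridge, glume primordium or double ridge), so both are named by their number. Every sample shared a single genotype and long-day growth conditions. In this spring wheat, part of the first intron of VRN-A1 is deleted, and the photoperiod gene is present as Ppd-A1a, an allele with a weakened response to day length. No winter-type VRN-A1 allele was included for comparison.

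As background, MADS-box proteins bind DNA as dimers and larger complexes at sites called CArG-boxes. VRN1 is the wheat vernalization gene, which winter wheats induce during prolonged cold and which promotes flowering. FUL2 and FUL3 are its closest paralogs, and the 3 genes act redundantly in the early spike: plants lacking all of them form leafy shoots where spikelets should stand.

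On the RefSeq v1.0 assembly of the variety Chinese Spring, with annotation v1.1, VRN-A1 spans chr5A:587411454-587423416 and VRN-B1 spans chr5B:573802883-573816070, both on the minus strand. FUL-A2 lies at chr2A:132859503-132876621 and FUL-B2 at chr2B:180040838-180060077, again on the minus strand. FUL-A3 occupies chr2A:411943192-411950517 on the minus strand and FUL-B3 chr2B:387698476-387705670 on the plus strand. The spans run from 7195 bp for FUL-B3 to 19240 bp for FUL-B2. Reads were counted over the whole span, introns included and without regard to strand. The FUL-B2 span overlaps 1 low-confidence model, which held 0 counts, and the other 5 spans overlap no model. The reference span of VRN-A1 includes intron sequence that Kronos lacks, and only uniquely mapped reads were kept. A comparison of levels between gene copies therefore also reflects how well each span maps, whereas a comparison of stages within 1 copy does not depend on its length.

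The counts on gene models added up to between 22229388 and 29655553 reads in a library. Transcript levels are given as TPM, the abundance of a transcript for its length as a share of the library, with the gene span as the length. In a whole apex, fewer cells of a type and less RNA per cell cannot be told apart. The meristem marker CLV3-A rose 2.10 on the log2 scale between W2 and W3.0 (SE 0.302). It was lower at W3.5 than at W3.0, with a log2 fold change of -1.41 (SE 0.273). CLV3-B was called in no consecutive step, TtWUSb had between 0 and 12 reads per library, and LFY-B was above 3.5 TPM in all libraries. Genes of photosystem I subunit IV, used as green-tissue markers, were detected in every library, and their levels are given beside the changes below.

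VRN-A1 was the most abundant copy in the vegetative meristem. At W1 its 4 libraries had 6.64, 8.08, 8.67 and 9.09 TPM, and at W2 they had 24.3, 21.5, 21.6 and 21.6 TPM. The groups did not overlap, and W2 replicate 1 stood above the other W2 libraries. VRN-A1 reached its highest mean at W3.0, with 26.6, 28.2, 28.5 and 29.5 TPM. It then had 26.6, 25.4, 25.2 and 24.6 TPM at W3.25 and 23.3, 21.7, 21.3 and 23.3 TPM at W3.5. Every W3.5 library lay below every W3.0 library. The W3.5 mean of 22.4 ± 1.08 TPM (SD, n = 4) was 79.5% of the W3.0 mean, close to the W2 mean of 22.3 ± 1.34 TPM (SD, n = 4).

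VRN-B1, the other VRN1 copy, started from a much lower level. Its W1 libraries had 0.736, 1.17, 1.26 and 1.43 TPM, and its W2 libraries 10.1, 9.38, 13.4 and 12.9 TPM. These ranges were far apart, and within W2 replicates 3 and 4 lay above replicates 1 and 2. At W3.0 the values were 23.7, 26.4, 23.0 and 24 TPM, at W3.25 26.8, 23.9, 27.0 and 25.1 TPM, and at W3.5 24.8, 24.6, 23.4 and 24.8 TPM. In TPM the last 3 stages overlapped, with means between 24.3 and 25.7 TPM. In TMM-normalised CPM every W3.5 library of VRN-B1 lay below every W3.25 library.

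FUL2 followed a similar course at a lower level. FUL-A2 had 0.312, 0.629, 0.563 and 0.773 TPM at W1 and 6.22, 6.32, 7.50 and 7.56 TPM at W2. It had 11.04, 12.03, 11.97 and 11.59 TPM at W3.0, 12.7, 12.7, 12.5 and 12.02 TPM at W3.25, and 12.2, 11.8, 11.3 and 12.1 TPM at W3.5. All W2 libraries lay above W1 and below W3.0, and in TPM the later 3 stages overlapped. In TMM-normalised CPM every W3.5 library of FUL-A2 lay below every W3.25 library. FUL-B2 had 0.184, 0.308, 0.179 and 0.355 TPM at W1 and 3.02, 3.45, 3.67 and 3.73 TPM at W2. Its 12 later libraries lay between 6.82 and 7.84 TPM, again with no overlap between W1, W2 and W3.0.

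Summed over its copies, FUL3 started lower than VRN1 and FUL2, and in TPM the means of both FUL3 copies rose through W3.5. FUL-A3 had 0.202, 0.464, 0.402 and 0.431 TPM at W1 and 5.70, 5.87, 7.97 and 7.97 TPM at W2. It continued to 24.8, 24.1, 22.4 and 22.2 TPM at W3.0, 28.5, 28.2, 29.0 and 30.2 TPM at W3.25, and 31.9, 30.9, 30.7 and 30.7 TPM at W3.5. In TPM no stage overlapped the stage before it, and the W3.5 mean of 31.0 ± 0.569 TPM (SD, n = 4) was the highest of any copy at any stage on this length-scaled measure. In TMM-normalised CPM the W3.25 and W3.5 libraries of FUL-A3 overlapped. FUL-B3 was barely detected in the vegetative meristem, with 5, 7, 3 and 4 reads, or 0.0572, 0.0944, 0.0423 and 0.0475 TPM. The sum of 19 reads has an exact Poisson 95% interval of 11.4 to 29.7 reads, which covers counting error only. At W2 it had 1.52, 1.53, 2.89 and 2.15 TPM and at W3.0 11.9, 10.5, 9.97 and 9.69 TPM. The W3.25 libraries had 13.5, 14.6, 13.3 and 14 TPM and the W3.5 libraries 15.8, 14.4, 14.6 and 11.9 TPM. FUL-B3 was higher in every W3.25 library than in any W3.0 library, and its W3.5 libraries overlapped both ranges.

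**Figure D1:**
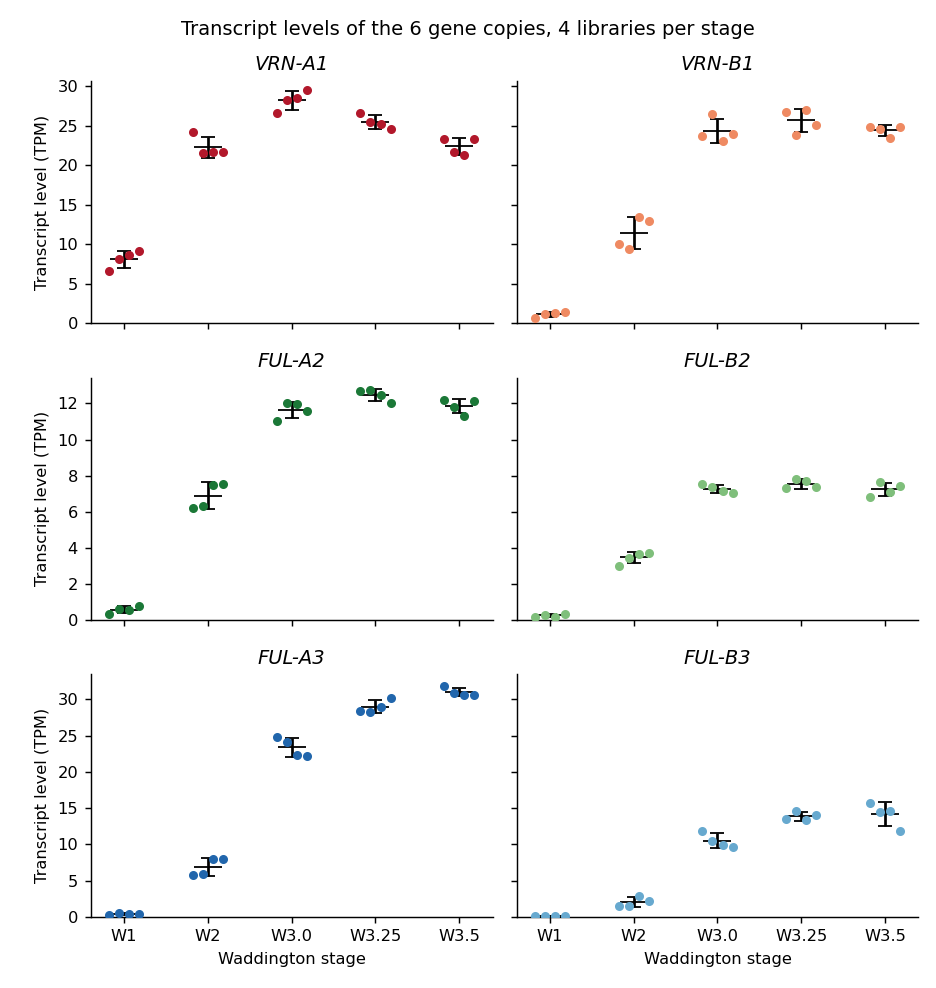
Transcript levels (TPM, y axis) of each gene copy by Waddington stage (x axis). Points are the 4 libraries of a stage, the horizontal mark is the mean and the bars are the SD; the y axis is shared by the copies of a row. FUL-A3 reached a mean of 31.0 TPM at W3.5, whereas VRN-A1 was highest at W3.0 and had a mean of 22.4 TPM at W3.5.

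The first comparison asked which copies changed as the vegetative meristem passed to W2. All 6 were DEGs with higher transcript levels at W2, called by both edgeR and DESeq2. Of all tested models, 8.3% were called higher in this step. The W1 and W2 libraries of all 6 also did not overlap in TMM-normalised CPM, with W2 above, as for 12.3% of all tested models. The log2 fold change was 1.35 (SE 0.0595) for VRN-A1, with a Benjamini-Hochberg adjusted p of 4.56e-15 in edgeR's quasi-likelihood test. It was 3.22 (SE 0.120) for VRN-B1, 3.5 (SE 0.117) for FUL-A2 and 3.64 (SE 0.116) for FUL-B2. The FUL3 copies rose by the largest factors, with 4.10 (SE 0.143) for FUL-A3 and 4.92 (SE 0.295) for FUL-B3. FUL-B3 ranked 22 and VRN-A1 ranked 910 among the 48336 models by size of the rise. The median of the 6 was 3.57, beside 0.00 over all tested models. The photosystem I subunit IV genes, as green-tissue markers, were also higher at W2 (2 of 2). The study gave these genes as examples of a sharp rise at W2 in these samples, so their rise is no independent evidence. PSI-IV-A rose from a range of 10.3 to 17.8 TPM to 45.7 to 56.5 TPM, and PSI-IV-B from 18.5 to 33.2 TPM to 55.3 to 66.2 TPM. The part of this shift in the members' change was not tested.

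All 6 copies rose again between W2 and W3.0, a step in which 7.64% of tested models were called higher. The increase was smallest for VRN-A1, whose log2 fold change was only 0.27 with an SE of 0.0569 (edgeR's quasi-likelihood test, adjusted p = 0.000548). It was 0.69 (SE 0.0895) for FUL-A2, 0.998 (SE 0.0807) for FUL-B2 and 1.01 (SE 0.0964) for VRN-B1. FUL-A3 rose by 1.70 (SE 0.0889) and FUL-B3 by 2.31 (SE 0.129). The members' median was 1.01, beside 0.01 over all tested models. In this step both green-tissue markers fell, by 0.37 and 0.44 on the log2 scale.

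Measured against the whole W1 to W3.0 difference in mean TPM, the copies had come different distances by W2. VRN-A1 had covered 70.4% of it (66.6% to 80.4% over the 4 W2 libraries). FUL-A2 had covered 57.1%, FUL-B2 45.8% and VRN-B1 44.5%. The FUL3 copies had come the shortest way, with 28.3% for FUL-A3 (23.2% to 33.0%) and 18.8% for FUL-B3 (13.96% to 27.1%). The W2 libraries of the FUL3 copies and those of VRN-A1 therefore did not overlap on this scale.

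No copy was a DEG between W3.0 and W3.25, where 0.821% of tested models were called in either direction. Neither edgeR alone nor DESeq2 alone called a member. At an unadjusted p below 0.05 in edgeR there were 3. FUL-B3 had a log2 fold change of 0.37 (95% interval 0.147 to 0.602), FUL-A3 of 0.29 (0.113 to 0.460) and VRN-A1 of -0.17 (-0.291 to -0.0496). FUL-A3 and FUL-B3 were called when only the libraries of these stages were fitted, with adjusted p-values of 0.00194 and 0.00269 in edgeR's quasi-likelihood test. The 397 DEGs over all models fell to between 228 and 239 without W3.0 replicate 3 or 4 or W3.25 replicate 3 or 4, and no member was called in those fits either.

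Between W3.25 and W3.5 again no copy was a DEG, beside 0.701% of tested models. VRN-A1 had a log2 fold change of -0.24 (95% interval -0.365 to -0.122). It was the only member with an unadjusted p below 0.05 and was called lower by DESeq2 (adjusted p = 0.00195) but not by edgeR's quasi-likelihood test (adjusted p = 0.0207). Without W1 replicate 1, which belongs to neither stage, VRN-A1 had an edgeR adjusted p of 0.00333 and was called by both tools. The other members had log2 fold changes between -0.13 and 0.04. The background of this step was itself unsteady. Its 339 DEGs became 620 without W1 replicate 1, 163 or 222 without W3.25 replicate 1 or 4, and 196, 153 or 129 without W3.5 replicate 1, 2 or 3. W1 replicate 1 stood apart from the other W1 libraries over all tested models. The chi-square of counts per degree of freedom was 9.69 to 11.1 in its pairs, against 2.45 to 3.87 in the other W1 pairs. The part of this library's spread in the late calls was not tested.

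**Figure D2:**
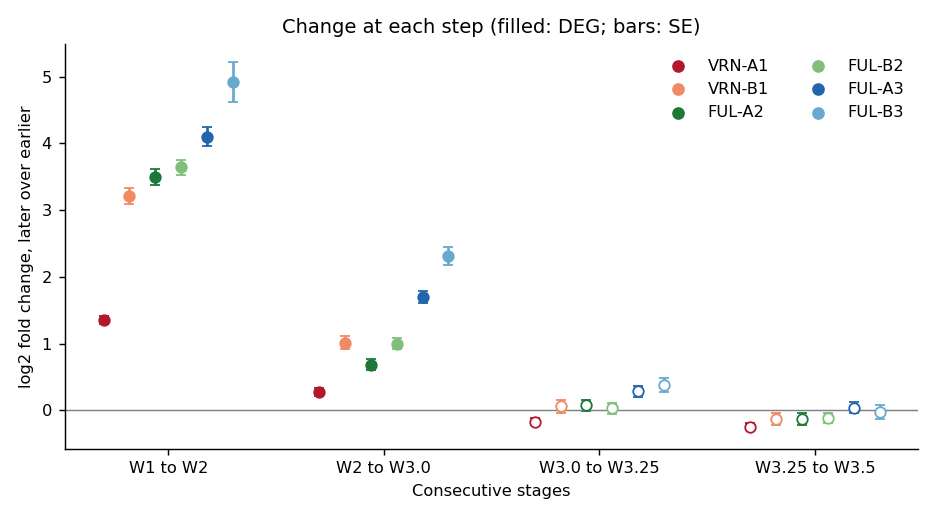
Log2 fold change (y axis, later over earlier stage) of the 6 copies at each consecutive step (x axis), with edgeR's estimate and its SE. Filled points are DEGs by both tools and open points are not. The order of the copies at the first step ran from 1.35 for VRN-A1 to 4.92 for FUL-B3, and all points of the last 2 steps lay between -0.24 and 0.37.

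Taking W3.0 and W3.5 directly, the VRN1 and FUL3 A-genome copies moved in opposite directions. VRN-A1 fell by 0.41 on the log2 scale (SE 0.0569, adjusted p = 1.12e-05 in edgeR's quasi-likelihood test), a comparison in which 3.41% of tested models were called lower. It remained called without any single library, at -0.44 to -0.38. FUL-A3 was called higher, at 0.33 (SE 0.0814, adjusted p = 0.00788 in the same test), beside 2.86% of tested models. This call was lost, with an edgeR adjusted p of 0.0105 to 0.0320, when any of 10 single libraries was left out: W3.0 replicates 2, 3 and 4, W3.25 replicates 1, 3 and 4, or any of the 4 W3.5 replicates. FUL-B3 had a similar log2 fold change of 0.35 (SE 0.107, edgeR adjusted p = 0.0312) and was not called, except when W2 replicate 3 was left out (edgeR adjusted p = 0.00721) or only these stages were fitted (0.00441). The other 3 copies had log2 fold changes between -0.09 and -0.06. Of the CLV3 meristem markers, CLV3-A was called lower in this comparison, at -1.41 (SE 0.273). CLV3-B, at -0.69 (SE 0.391), was not called. The part of this marker change in the members' changes was not tested. Over all models the 3031 DEGs of this comparison became 1982 without W3.5 replicate 3.

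Across the full course from W1 to W3.5, all 6 copies were higher, beside 22.3% of tested models. The log2 fold change was 1.21 (SE 0.0594) for VRN-A1, 4.13 (SE 0.116) for FUL-A2 and 4.16 (SE 0.119) for VRN-B1. It was 4.55 (SE 0.112) for FUL-B2, 6.12 (SE 0.130) for FUL-A3 and 7.58 (SE 0.222) for FUL-B3. All 6 also passed the F test of change over the 5 stages, as did 63.1% of tested models. FUL-A3 had the F statistic of rank 2 among 48336 models and FUL-B2 that of rank 22, whereas VRN-A1 had rank 363.

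The next comparison set the homoeologs against each other, as the log2 ratio of A to B copy in TPM. The VRN1 pair was chosen by the study from these samples as an example of divergent homoeologs, so its ratio is no independent evidence of divergence. The VRN1 ratio was 3.17, 2.78, 2.78 and 2.67 in the W1 libraries and 1.27, 1.20, 0.69 and 0.74 at W2. By W3.0 it was 0.17, 0.09, 0.31 and 0.30, followed by -0.01, 0.09, -0.10 and -0.03 for the W3.25 libraries and -0.09, -0.18, -0.14 and -0.09 for the W3.5 libraries. VRN-A1 was thus above VRN-B1 in all 12 libraries up to W3.0, in 1 of 4 at W3.25 and in 0 of 4 at W3.5. As a share of the summed VRN1 level, VRN-B1 supplied 12.2% ± 1.56 (SD, n = 4) in W1 libraries, 33.8% ± 4.65 in W2 libraries and 52.2% ± 0.804 by W3.5. The crossing point depends on the length scale and on how each copy maps. The fall of the ratio is free of the length scale. It is free of how each copy maps only if that stays the same between stages, which was not tested.

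The other pairs shifted in the same direction by less. FUL-A2 exceeded FUL-B2 in all 20 libraries, with a mean log2 ratio at W1 of 1.14 ± 0.368 (SD, n = 4) and at W2 of 0.99 ± 0.0783. From W3.0 through W3.5 the means were 0.68 ± 0.0871, 0.73 ± 0.0466 and 0.71 ± 0.0935. The W2 and W3.0 libraries did not overlap, while W1 spanned 0.76 to 1.64. FUL-A3 exceeded FUL-B3 in all 20 libraries as well, with a mean at W1 of 2.51 ± 0.650 (SD, n = 4) and at W2 of 1.79 ± 0.224. Later means were 1.16 ± 0.0647, 1.06 ± 0.0810 and 1.14 ± 0.159. Its W1 values of 1.72 to 3.05 rest on the 19 FUL-B3 reads.

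All 3 homoeolog ratios changed over the 5 stages in a permutation F test with 100000 permutations of the stage labels. The adjusted p was 3e-05 for VRN1, from the smallest p that these permutations can give, 7.5e-05 for FUL3 and 0.00499 for FUL2. With W1 left out, an alternative chosen after seeing the data, the ratios of FUL3 and FUL2 still changed (adjusted p = 0.00167 and 0.00208, permutation test). Single steps were tested with exact two-sided permutation tests of 4 against 4 libraries, whose smallest p is 0.0286. VRN1 reached it in the first 3 steps, with differences of -1.87, -0.76 and -0.23. FUL2 and FUL3 reached it from W2 to W3.0, with -0.31 and -0.64. Adjusted over the 12 steps these p-values became 0.0686, so no single step passed 0.05 in the exact tests. Passing depended on how many of the 12 steps reached the smallest p, so this outcome does not measure the evidence in a single step.

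**Figure D3:**
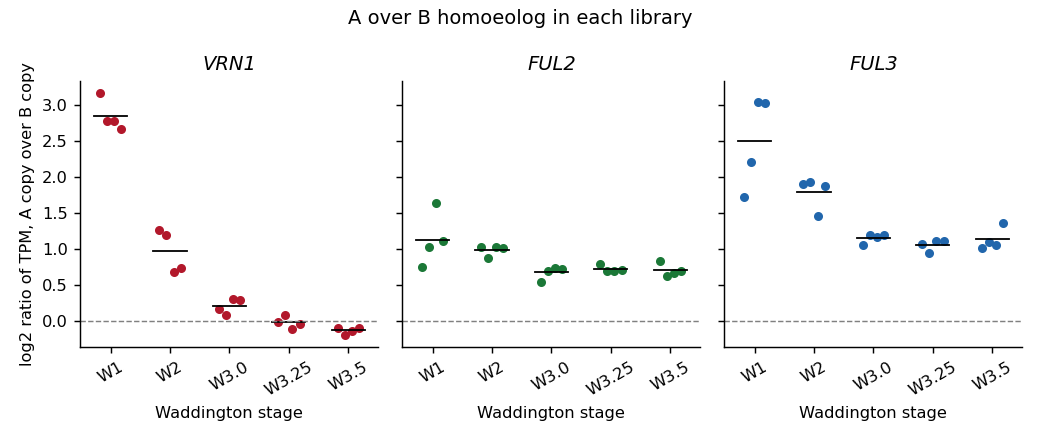
Log2 ratio of A to B copy in TPM (y axis) in each library by Waddington stage (x axis), for each gene. Points are libraries, black lines stage means, and the dashed line marks equal TPM. The VRN1 ratio fell from a mean of 2.85 at W1 to -0.12 at W3.5, and the FUL2 and FUL3 ratios stayed above 0 in all 20 libraries.

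The make-up of the whole group changed along with its level. Summed over the 6 copies, the W1 level was 10.5 ± 1.71 TPM (SD, n = 4) and the W2 level 53.0 ± 4.28 TPM. The sum then reached 105.3 ± 2.51, 114.01 ± 1.21 and 111.1 ± 2.66 TPM in the last 3 stages. VRN1 made up 88.2% ± 2.17 of the W1 sum and 63.7% ± 2.86 of the W2 sum, and ended at 42.1% ± 1.06 in W3.5 libraries. The FUL3 share was 4.08% ± 0.828 in W1 libraries and 16.7% ± 2.25 in W2 libraries, and ended at 40.7% ± 1.45. FUL2 supplied 7.70% ± 1.55 at W1 and then between 17.2% and 19.6% on average. These shares depend on the gene spans. In TMM-normalised CPM, which is not scaled by length, VRN1 still fell from 86.5% ± 2.49 (SD, n = 4) at W1 to 46.7% ± 0.808 at W3.5 and FUL3 rose from 2.41% ± 0.486 to 26.1% ± 1.14, so that FUL3 stayed below VRN1.

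**Figure D4:**
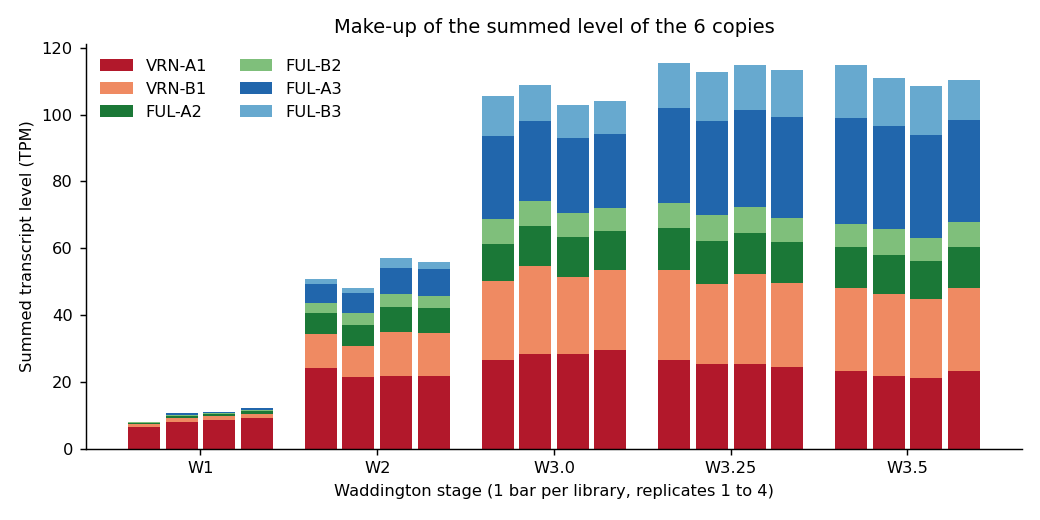
Summed transcript level of the 6 copies (TPM, y axis), 1 bar per library, grouped by Waddington stage (x axis). Colours are the copies. The mean sum was 10.5 TPM at W1, mostly VRN-A1, and 111.1 TPM at W3.5, where VRN1 made up 42.1% and FUL3 40.7%.

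These paralog ratios, formed from the summed TPM of the A and B copies, all changed over the 5 stages (adjusted p = 1e-05 for each in the permutation F test, the smallest it can give). The log2 ratio of VRN1 to FUL3 fell from 4.41 ± 0.307 (SD, n = 4) at W1 to 1.94 ± 0.258, 0.63 ± 0.126, 0.26 ± 0.0845 and 0.05 ± 0.0872 at the later stages. VRN1 to FUL2 fell from 3.53 ± 0.325 at W1 to 1.70 ± 0.127 at W2, and then to 1.29 ± 0.0360 at W3.5. FUL2 to FUL3 fell from 0.88 ± 0.233 at W1 to -0.84 ± 0.102 at W3.0 and -1.24 ± 0.0916 at W3.5. The negative sign depends on the gene spans. In TMM-normalised CPM, not scaled by length, the mean FUL2 sum stayed above that of FUL3 at every stage. It was 130.9 against 95.2 CPM at W3.0 and 124.9 against 119.9 CPM at W3.5. All 3 ratios fell in each of the first 3 steps without overlap of the libraries (adjusted p = 0.0381 over 12 exact permutation tests). The last step did not pass in any of them, with adjusted p-values of 0.0623 to 0.143 in the same exact tests. As for the homoeologs, passing depended on how many of the 12 steps reached the smallest exact p. The 3 paralog ratios are also not independent, since each follows from the others.

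The order of the levels in TPM changed accordingly. At W1 and W2, VRN-A1 was highest and VRN-B1 second, and FUL-B3 was lowest. At W1 the neighbours from VRN-B1 down to FUL-B2 overlapped in their libraries. At W2 FUL-A2 and FUL-A3 could not be separated, at 6.90 and 6.88 TPM on average. At W3.0 VRN-A1 was still highest, VRN-B1 and FUL-A3 overlapped, and FUL-A2 and FUL-B3 overlapped. FUL-A3 was the highest copy at W3.25 and W3.5, above VRN-B1 and VRN-A1 without overlap, and FUL-B2 was the lowest from W3.0 on. The later order did not hold without the length scale, a comparison added after seeing the data. In TMM-normalised CPM, VRN-B1 was highest at W3.25 and W3.5, with 117.3 ± 4.15 CPM at W3.5 (SD, n = 4) against 82.8 ± 2.05 for FUL-A3, and FUL-B3 was lowest at every stage.

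Within W2 the replicate pools did not all sit at the same point. In VRN-B1, FUL-A2, FUL-B2, FUL-A3 and FUL-B3, replicates 3 and 4 lay above replicates 1 and 2, by up to 0.57 log2 CPM over the stage mean for FUL-B3 in replicate 3. VRN-A1 did not show this order, since replicate 1 was its highest library, 0.10 above the mean. The VRN1 A to B ratio split the same way, at 1.27 and 1.20 against 0.69 and 0.74. The first principal component of all expressed models, along which the stages W1 to W3.0 separate, placed the W2 replicates in the order 1, 4, 2 and 3 (scores -71.8, -58.6, -51.6 and -43.5), which is not the split of the members. At W1, replicate 1 was the lowest library in VRN-A1, VRN-B1, FUL-A2 and FUL-A3, by 0.65 log2 CPM under the mean in FUL-A2, and it also had the lowest score (-189.9). From W3.0 on, all member values lay within 0.24 log2 CPM of their stage means.

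**Figure D5:**
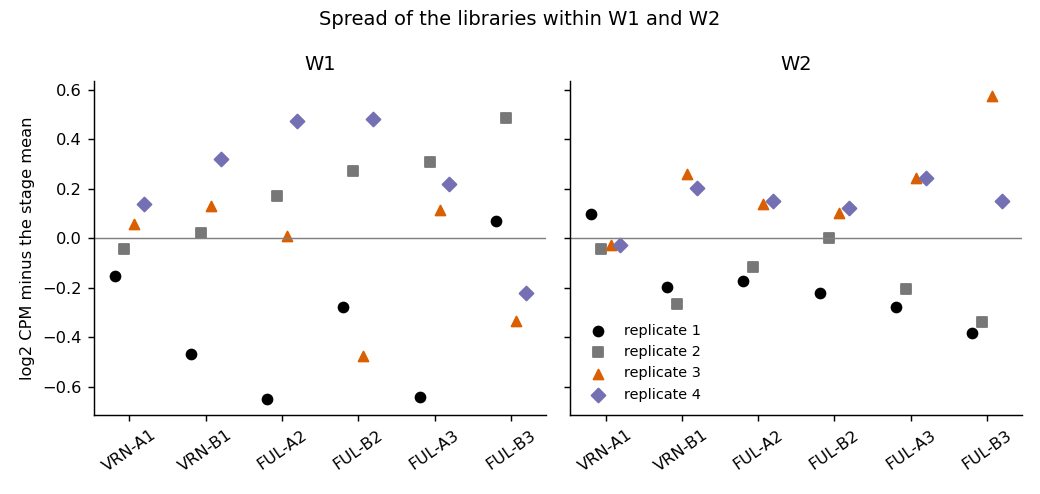
Deviation of each library from its stage mean (log2 CPM, y axis) for the 6 copies (x axis) at W1 and W2. Symbols are the replicates, whose numbers are not known to link W1 with W2. At W2, replicates 3 and 4 lay above 1 and 2 in 5 copies, with FUL-B3 in replicate 3 at 0.57, and replicate 1 was highest in VRN-A1.

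Over the 20 libraries, the 15 pairs among the 6 copies had a median Pearson r of 0.983 in log2 CPM, between 0.9003 for VRN-A1 with FUL-B3 and 0.995 for VRN-B1 with FUL-A2. The points share the 5 stages, and Spearman's rho had a median of 0.735. VRN-B1 was closer to FUL-A2, FUL-B2 and FUL-A3 (r = 0.994 to 0.995) than to its own homoeolog (r = 0.953). For FUL-B2 the model of rank 1 among 38011 high-confidence models was FUL-A2, and for FUL-A3 FUL-B3 had rank 2. Outside the group, 205 of 38006 models had an r above 0.9 with all 6. The models with the highest mean r were TraesCS3A02G143100 (0.985) and TraesCS5A02G391800 (0.983). The latter lies at chr5A:588017833-588024080, 594417 bp beyond VRN-A1 and with no annotated model between them. Its mean level in TPM was 0.105 in the W1 libraries, 4.23 in the W2 libraries and 20.1 in the W3.0 libraries, and then 18.6 and 16.2. Neither model is given a name in the sources used here, and other models led under Spearman's rho or a prior count of 0.5.

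Genes outside the group were counted from lists taken from the study's text and network. SPL proteins are transcription factors that in Arabidopsis promote AP1 and its relatives, and 5 of 5 SPL models rose both from W1 to W2 (log2 fold change 1.16 to 3.27) and from W2 to W3.0 (0.52 to 1.71), steps in which 8.3% and 7.64% of all tested models were called higher. Of these, 3 then fell in each later step, beside 0.348% and 0.414% of tested models, whereas TraesCS2B02G250900 and TraesCS2A02G232400 had log2 fold changes between 0.13 and 0.15. LFY-B, the LEAFY regulator of floral meristem identity, rose by 1.42 (SE 0.107) and then 1.17 (SE 0.0903), and was not called in the last 2 steps. SVP-B2, of the SVP subclade that AP1/SQUA genes repress in wheat, had a log2 fold change of -0.13 to W2 and then fell by 1.04 (SE 0.0822), 0.57 (SE 0.0851) and 0.76 (SE 0.0900). Its mean was 39.4 TPM at W1 and 38.8 at W2. Whether the 6 copies act on SVP-B2 in these samples was not tested. The TCP models fell in both early steps (5 of 5 in each), where 14.6% and 11.6% of all tested models were called lower. The SPL and TCP models come from a network that the study built from DEGs of these samples, so their counts are no independent evidence. PI-A1 and PI-B1, B-class genes of petal and stamen identity, were called in neither early step and rose in both later ones, by 1.01 and 0.73 and then by 1.21 and 1.003, where none of the 6 AP1/SQUA copies was a DEG and 0.474% and 0.288% of tested models were called higher. MADS32-A1 rose in both early steps and MADS32-B1 from W2 to W3.0 and from W3.0 to W3.25. The study's text names PI-A1 and PI-B1 among genes upregulated over W3.0 to W3.5 in these samples. The MADS32 and SVP-B2 models were taken from the same text or network. These MADS-box changes are therefore no independent evidence either. All list genes named here were chosen with results of these data known.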

How the data were processed

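The authors deposited raw counts per gene model, which they made from trimmed single reads with STAR 2.7.5 and featureCounts 2.0.0 at a minimum mapping quality of 40, without normalization. Rows of D-genome models, all at 0, were left out. TPM was computed with the gene span as length. In R 4.3.3, models kept by filterByExpr (minimum count 10, minimum total 15) were fitted with all 20 libraries and stage as factor, which leaves 15 residual degrees of freedom. A DEG passed both edgeR 4.0.16 (quasi-likelihood test, TMM) and DESeq2 1.42.0 (Wald test) at a Benjamini-Hochberg adjusted p of 0.01 in the same direction, both two-sided. The F test over stages used 0.05. Log2 fold changes are edgeR's, with SE taken as their absolute value over the square root of F. The 95% intervals used this SE and a t distribution on the 15 residual degrees of freedom. They are not edgeR's own and need not match its p-values exactly. Ratios used 0.5 counts as pseudocount in Python 3.11.15, and were adjusted over 3 ratios or 12 steps. Log2 CPM had a prior count of 2. Scripts were tested on simulated data. The alternatives changed the tool, libraries, filter, normalization, threshold, replicate block, pseudocount and likeness measure. The members and lists were chosen with earlier results of these data known; all 6 members, all list genes and the 2 most similar other models are described. Neither sequences nor promoter motifs were analysed here.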

Additional observations from a re-analysis of the deposited data

Results flagged for a closer look

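In 60 groups of 4 libraries (30 of member TPM and 30 of log2 ratios), 7 had a library whose gap to its nearest neighbour exceeded 0.83 of the group's range, where chance gives about 1 in 20. VRN-A1 at W2 was highest in replicate 1, with 24.3 TPM against 21.6 for the next (0.944 of the range). VRN-B1 at W3.5 was lowest in replicate 3, with 23.4 against 24.6 TPM (0.867). The FUL2 A to B ratio was lowest in W2 replicate 2, at 0.87 against 1.02 (0.877), and highest in W3.25 replicate 1, at 0.80 against 0.71 (0.875). The FUL3 A to B ratio was lowest in W2 replicate 3, at 1.46 against 1.89 (0.903), the library with the highest FUL-B3 level of its stage. VRN1 to FUL2 was highest in W2 replicate 1, at 1.89 against 1.66 (0.837). FUL2 to FUL3 was lowest in W3.25 replicate 4, at -1.19 against -1.07 (0.913). No cause was tested for any of them.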

How the results depend on the processing

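Of 1557 values recomputed under alternatives, 1511 kept their direction and their side of the threshold or moved by less than the spread between libraries. Counts of calls were taken as kept when close to the reported count. Some values could not change: edgeR alone and the 2-fold requirement reused the same fold changes. Counts not scaled by length only shift a homoeolog log2 ratio by a constant. Normalization was varied in edgeR only, with the DESeq2 fit kept. The 6 members called from W1 to W2, from W1 to W3.5 and over the 5 stages, and the 3 homoeolog and 3 paralog ratios, kept their counts under every alternative run. From W2 to W3.0, requiring at least a 2-fold change left 3 members (VRN-B1, FUL-A3 and FUL-B3). From W3.0 to W3.25, fitting only the compared stages called 2. From W3.25 to W3.5, DESeq2 alone, a fit of only those stages and no filter each called 1, VRN-A1, and leaving out single libraries gave 0 to 1. From W3.0 to W3.5, the 2-fold requirement left 0, and leaving out single libraries gave 1 to 3. FUL-B3 from W3.25 to W3.5, not called, changed sign to 0.0081 with library totals only, and ranged from -0.085 to 0.047 over the libraries left out (0.0071 without W3.25 replicate 2, 0.047 without W3.5 replicate 4).

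Same-numbered libraries of different stages had a mean r of 0.0070 in their deviations from the stage means (range -0.058 to 0.102). The mean for other numbers, -0.0023, follows from centring on the stage means and is no separate baseline. The highest mean for a pair of stages was 0.051, for W3.0 with W3.25 (range 0.0077 to 0.095). A replicate block left 1 member called from W3.0 to W3.5, VRN-A1, as FUL-A3 had an edgeR adjusted p of 0.0113, and changed no other call.

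Library totals without TMM moved the median of all tested models by 0.10 from W1 to W2 and 0.20 from W1 to W3.5. They moved the share of DEGs called higher from 41.0% to 54.4% from W3.25 to W3.5 and from 45.6% to 57.3% from W3.0 to W3.5. The cause was not tested. Coding length in place of the gene span was not run. At W1, FUL-B3 rests on 3 to 7 reads per library, which limits its fold changes and the FUL3 ratio.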
